A study of Mus musculus with 2 samples.

Results

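Cntn5, Cntnap2, Lrrc4c, Sdk1 and Tmem132d are 5 very long mouse genes that encode cell-surface proteins of neurons, and candidate 5-formylcytosine (5fC) was examined along each of them in mouse embryonic stem cells. They are 5 of 21887 protein-coding genes in the RefSeq annotation of GRCm38, the same build as mm10, and each was taken from its start to its end with 2 kb on both sides. The genes were chosen by name with the called sites of these libraries in view, so the number, context and level of their sites are given as a description with no test. The study consisted of 2 libraries (replicates 1 and 2) of genomic DNA from embryonic stem cells with no treatment named in the labels, and no control library was used here. Strain, sex, culture conditions and passage are not given in the sources used here, and no label says that the replicates came from separate cultures. A p-value between them rests on the read counts of a site, so it is set against read sampling only and not against a spread between cultures. Any difference between the libraries may be technical. DNA offers no expression marker against which the cell type could be checked. In the assay, CLED-seq, 5fC is coupled to biotin, the coupled fragments are pulled down on streptavidin beads, and the deaminase A3A converts the other cytosines, so a cytosine that is still read as C is a candidate 5fC. The authors listed only cytosines that passed their test with at least 30 reads, which are named called sites here. The share of reads that kept the C is the level of a site. Since only fragments that were pulled down are counted, it is not the share of DNA molecules that carry 5fC, and a cytosine that merely escaped conversion cannot be told apart from 5fC.

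5fC is an intermediate of active DNA demethylation. TET enzymes oxidise 5-methylcytosine stepwise to 5-hydroxymethylcytosine, 5fC and 5-carboxylcytosine, and thymine DNA glycosylase cuts out the last pair of these. In mammals most 5-methylcytosine, and therefore most substrate for TET enzymes, lies in CG dinucleotides. Cntn5, Cntnap2, Sdk1 and Lrrc4c are best known from synapses and axons and not from pluripotent cells. Cntn5 encodes contactin 5, a lipid-anchored immunoglobulin-type adhesion molecule. Cntnap2 encodes Caspr2, which holds potassium channels beside the nodes of myelinated axons. Sdk1 encodes sidekick 1, an adhesion molecule that binds to itself on partner neurons and guides synapses in the retina. Lrrc4c encodes NGL-1, the synaptic receptor of netrin-G1. Tmem132d encodes a membrane protein with a single transmembrane segment whose role is less settled.

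Replicate 1 held 50 of its 28569 called sites in the 5 genes and replicate 2 held 45 of 29650. Together these were 67 distinct positions, of which 28 were called in both replicates, 22 in replicate 1 alone and 17 in replicate 2 alone. All 5 genes held a site called in both replicates, against a background of 22.2% of protein-coding genes and 81.9% of the 227 protein-coding genes of at least 500 kb. A called site in either replicate was found in 47.9% of protein-coding genes and in 99.1% of those of at least 500 kb. A CG site called in both was found in 3 of the 5 genes (Cntn5, Lrrc4c and Sdk1), in 3.16% of protein-coding genes and in 13.2% of those of at least 500 kb. Because the genes were chosen with these sites in view, nothing is read from those counts. All 67 positions lay inside the genes and 0 in the flanks. The depth at the sites was low, with medians of 32 and 33 reads, and at the median depth the 95% Wilson interval of a level is wide. Reads carried no molecular identifiers as far as the sources say, so all intervals cover counting error only.

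The promoters held no called site. RefSeq promoter windows of 300 bases (250 before and 50 after a start) were given for 4 of the 5 genes, 6 windows in all. The windows differed widely in CpG number, from 3 in an internal start of Cntnap2 and 6 in Lrrc4c to 14 at the main start of Cntnap2, 26 in each window of Cntn5 and 54 in Sdk1. Over all 32851 windows the median was 7, and 94.6% held at least 1 CG, the motif counted here, which reads the same on both strands. A called site was found in 898 windows (2.73%), so a window without one is the usual case. The nearest called site lay 17763 bp from the internal start of Cntnap2, 30404 bp from the window of Sdk1 and 73408 and 73457 bp from those of Cntn5. It lay 112910 bp from the window of Lrrc4c and 120360 bp from the main start of Cntnap2. For Sdk1 and Cntn5 this site was outside the gene, whose own first position lay 173 kb and 152 kb from the 5′ end. The 2 upstream sequences below, from RefSeq GRCm38.p6, span the range among the main starts of the matched genes. Both lie on the plus strand, end at the base before the first annotated base of the gene, and carry each CG in capitals, 37 in Sdk1 and 4 in Lrrc4c.
Sdk1, chr5:141241284-141241496: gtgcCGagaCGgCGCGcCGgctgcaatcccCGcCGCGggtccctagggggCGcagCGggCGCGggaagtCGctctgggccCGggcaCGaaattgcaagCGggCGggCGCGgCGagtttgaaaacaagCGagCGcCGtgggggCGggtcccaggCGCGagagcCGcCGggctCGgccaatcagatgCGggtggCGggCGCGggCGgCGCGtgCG
Lrrc4c, chr2:96317919-96318168: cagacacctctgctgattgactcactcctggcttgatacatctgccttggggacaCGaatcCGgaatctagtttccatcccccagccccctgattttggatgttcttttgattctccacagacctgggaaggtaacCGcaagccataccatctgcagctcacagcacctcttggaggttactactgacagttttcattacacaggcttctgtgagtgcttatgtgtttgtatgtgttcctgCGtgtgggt
Whether these bases were covered by captured reads is not listed, so the absence of a call says nothing of their modification.

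The site density separated the genes (the plot of sites per 100 kb shows it). Lrrc4c, Cntnap2 and Cntn5 held fewer sites per 100 kb than their chromosomes, and Tmem132d held more. Lrrc4c (chromosome 2, 96318169 to 97631672) had 3 sites in replicate 1 and 2 in replicate 2, which is 0.228 and 0.152 per 100 kb (95% exact Poisson intervals 0.0470 to 0.665 and 0.0184 to 0.548). Chromosome 2 as a whole had 1.17 and 1.23 per 100 kb, so the gene stood at 0.194 and 0.124 of its chromosome. This was the lowest density of the 5 genes in both libraries. Cntnap2 (chromosome 6, 45060061 to 47301393) had 7 and 10 sites, or 0.312 and 0.445 per 100 kb, against 1.01 and 1.07 for chromosome 6. Cntn5 (chromosome 9, 9634223 to 10904775) had 6 and 7 sites, or 0.471 and 0.549 per 100 kb, against 1.42 and 1.38 for chromosome 9. The intervals cover counting error only and test nothing here, since the genes were chosen with these sites in view and the libraries share 28 of the positions. In the order Lrrc4c, Cntnap2, Cntn5, Sdk1, Tmem132d, the intervals of the first 3 overlapped one another in both replicates.

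Tmem132d and Sdk1 share chromosome 5, whose mean was 1.30 and 1.32 sites per 100 kb. Tmem132d (127783491 to 128433077) had 17 and 14 sites, or 2.60 and 2.14 per 100 kb. That is 2.01 times the chromosome mean in replicate 1 (counting interval of the ratio 1.17 to 3.21) and 1.63 times in replicate 2 (0.889 to 2.73). Sdk1 (141241497 to 142215586) had 17 and 12 sites, or 1.74 and 1.23 per 100 kb. It stood at 1.34 and 0.931 of the chromosome mean, above it in replicate 1 and below it in replicate 2 (counting intervals 0.781 to 2.15 and 0.481 to 1.63). The intervals of Sdk1 and Tmem132d overlapped in both replicates. The interval of Sdk1 also overlapped with that of Cntn5 in both replicates and with that of Cntnap2 in replicate 2, but with that of Lrrc4c in neither.

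**Figure D1:**
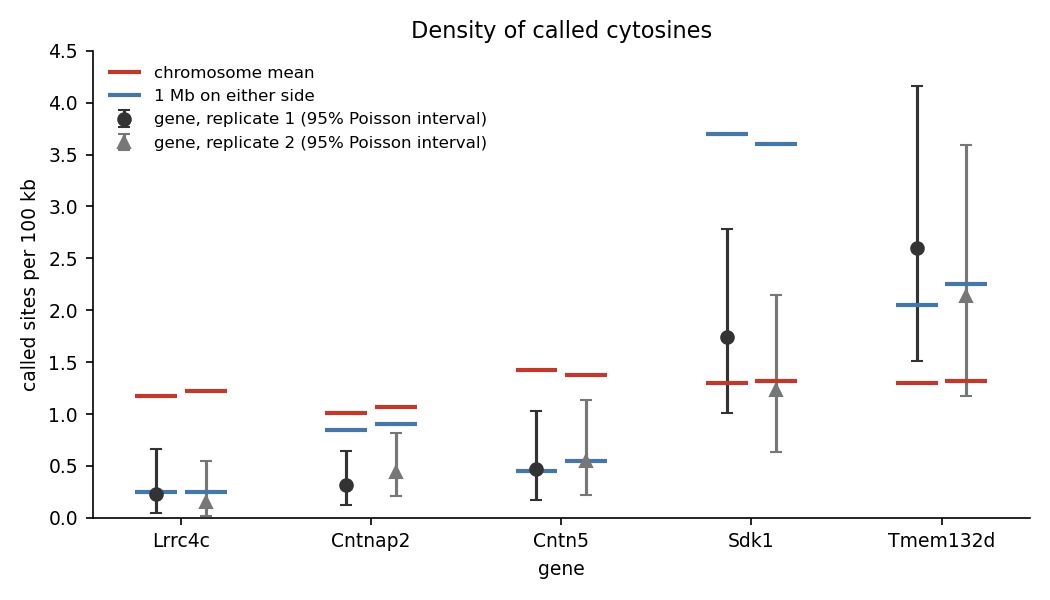
Called sites per 100 kb (vertical axis) in each of the 5 genes with 2 kb flanks (horizontal axis), for replicate 1 (circles) and replicate 2 (triangles) with 95% exact Poisson intervals; red lines give the mean of the gene's chromosome and blue lines the mean of the 1 Mb on either side. Lrrc4c, Cntnap2 and Cntn5 lie below the red lines in both replicates, and Lrrc4c, Cntnap2 and Sdk1 lie below the blue lines in both.

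The surroundings of the genes had densities of their own. In the 1 Mb on either side of Lrrc4c there were 0.250 called sites per 100 kb in both replicates, beside 0.228 and 0.152 in the gene. Around Cntn5 there were 0.450 and 0.550, beside 0.471 and 0.549. Low densities were thus also found in the flanking sequence of both genes. Around Tmem132d the density was 2.05 and 2.25 per 100 kb, beside 2.60 and 2.14 in the gene, so a high density was found there as well. The density inside Lrrc4c was below that around it in both replicates, though 0.250 lies within the counting intervals of the gene. Cntnap2, with 0.850 and 0.900 around it, and Sdk1, with 3.70 and 3.60 around it, held fewer sites per 100 kb than their surroundings in both replicates. Measured against the 1 Mb on either side, the mean ratio was 0.759 for Lrrc4c, 1.02 for Cntn5, 0.433 for Cntnap2, 0.406 for Sdk1 and 1.10 for Tmem132d. How many cytosines were covered in each region is not listed, and the part of coverage in these densities was not tested.

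Among the 227 protein-coding genes of at least 500 kb, ordered from the highest ratio to the chromosome mean, Tmem132d was number 7, Sdk1 35, Cntn5 171, Cntnap2 174 and Lrrc4c 212. The median ratio of the other 222 such genes was 0.568, with quartiles of 0.380 and 0.882, and 46 of the 222 stood above 1. Cntn5 at 0.365, Cntnap2 at 0.363 and Lrrc4c at 0.159 (means of the replicates) thus lay below the lower quartile of long genes. Sdk1 at 1.14 and Tmem132d at 1.82 lay above the upper quartile. By distance in sites per 100 kb over the 2 libraries, the long genes most like Lrrc4c were Nkain2 (0.248 and 0.165 per 100 kb) and Nrg3 (0.270 and 0.180). Those nearest to Cntn5 were Rbfox1 and Grm5, those nearest to Cntnap2 were Galntl6 and Sugct, and those nearest to Sdk1 were St6galnac3 and Sox5. Those nearest to Tmem132d were Fam155a (2.10 and 2.28 per 100 kb) and Pard3 (2.17 and 1.63), whose densities lie within the counting intervals of Tmem132d (1.52 to 4.16 and 1.17 to 3.59). The distance is in absolute density, so it is not compared between sparse and dense genes.

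**Figure D2:**
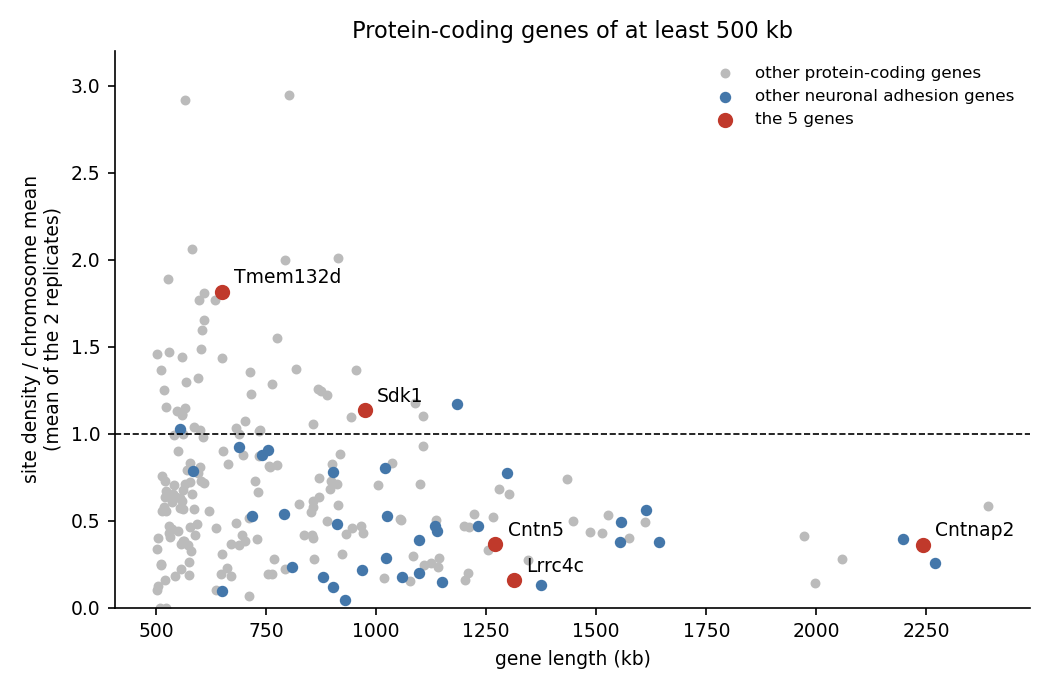
Site density divided by the chromosome mean (vertical axis, mean of the 2 replicates) against gene length in kb (horizontal axis) for the 227 protein-coding genes of at least 500 kb; red points are the 5 genes, blue points the other neuronal adhesion genes of a fixed list, grey points all others, and the dashed line marks a ratio of 1. Tmem132d at 1.82 and Sdk1 at 1.14 lie above the line, and Cntn5 at 0.365, Cntnap2 at 0.363 and Lrrc4c at 0.159 below it.

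CG sites were few. There were 6 distinct CG positions among the 67, of which 4 lay in Sdk1, 1 in Cntn5 and 1 in Lrrc4c, and Cntnap2 and Tmem132d had 0 among their 13 and 19 positions. The CG share of the sites in the 5 genes was 10.0% in replicate 1 (5 of 50, Wilson interval 4.35 to 21.4) and 8.89% in replicate 2 (4 of 45, 3.51 to 20.7). Over all called sites it was 8.01% and 8.20%, and over the sites of the other protein-coding genes of at least 500 kb it was 5.86% and 5.74%. These shares are set side by side as a description. With H standing for A, C or T, the CHG context accounted for 24.0% and 26.7% of the sites in the 5 genes, and CHH for 66.0% and 64.4%. The share of CG among covered cytosines is not listed, so none of these shares shows enrichment.

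The 3 bases that begin at each called C are part of the deposited data, and they are given 5′ to 3′ on the strand of the site. In Cntn5, the CG site lay on the minus strand at chromosome 9 position 9681379, within CGG, 1223 kb from the 5′ end of the gene. It kept the C in 26 of 32 reads in both replicates, a level of 81.2% (Wilson interval 64.7 to 91.1). The CG site of Lrrc4c lay within CGT on the minus strand at chromosome 2 position 96431128, 113 kb from the 5′ end, and kept the C in 22 of 35 reads in both replicates, or 62.9% (46.3 to 76.8). In both genes the read counts at this site were equal in the 2 libraries. Sdk1 had a CG site in both libraries within CGG on the minus strand at chromosome 5 position 141613369, with 10 of 31 reads in replicate 1 (32.3%, 18.6 to 49.9) and 11 of 32 in replicate 2 (34.4%, 20.4 to 51.7). Its other 3 CG sites were each called in 1 library. They lay within CGC at 141824038 (22 of 46 reads in replicate 2, 47.8%), within CGT at 142134640 (26 of 39 reads in replicate 1, 66.7%) and within CGA at 142140159 (21 of 31 reads in replicate 1, 67.7%). The site at 142134640 also lies inside the long noncoding RNA gene Gm52792. No CpG of the 5 genes was called on both strands, and since only called sites are listed, this does not show that the opposite cytosine was unmodified.

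**Figure D3:**
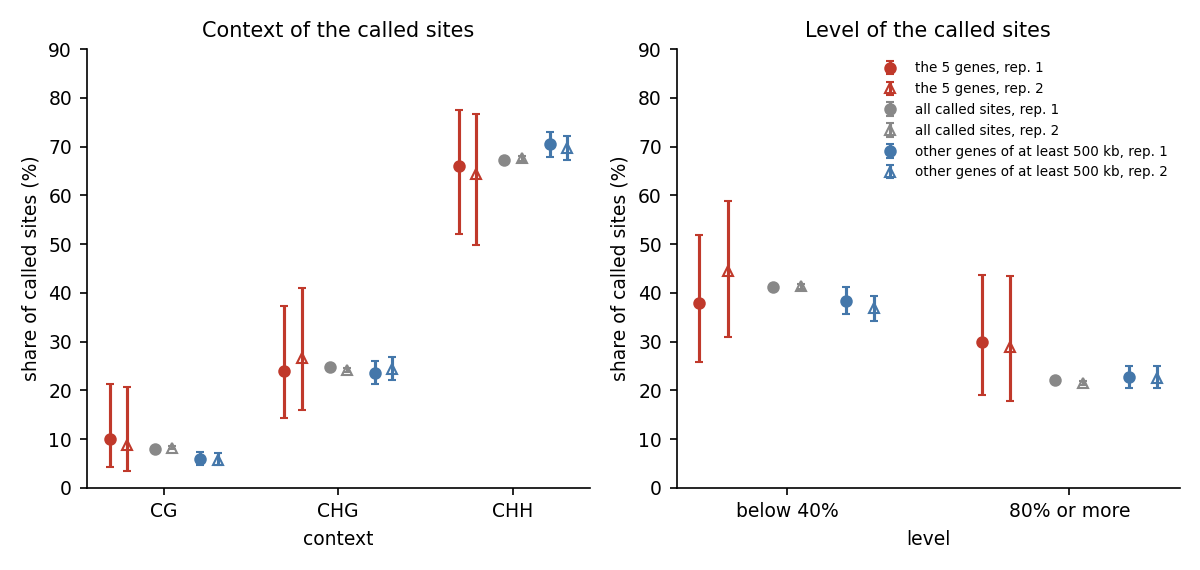
Share of called sites in percent (vertical axes) by sequence context (left) and by level (right) for the 5 genes (red), all called sites (grey) and the other protein-coding genes of at least 500 kb (blue); filled circles are replicate 1, open triangles replicate 2, and bars 95% Wilson intervals. CHH is the most frequent context in all 3 sets, at 66.0% and 64.4% of the sites in the 5 genes.

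Over the 5 genes together, levels ran from 21.1% to 100% in replicate 1 with a median of 58.8% (quartiles 32.3 and 89.5) and from 18.8% to 100% in replicate 2 with a median of 42.4% (quartiles 30.0 and 81.2). The medians of all called sites were 46.7% and 46.2%, so the 5 genes lay above them in replicate 1 and below them in replicate 2. Levels of at least 80% were found at 15 of 50 sites in replicate 1 (30.0%, Wilson interval 19.1 to 43.8) and at 13 of 45 in replicate 2 (28.9%, 17.7 to 43.4), against 22.0% and 21.5% of all called sites. Levels below 40% were found at 19 and 20 sites, against 41.3% and 41.4% of all called sites (38.0% and 44.4% in the 5 genes). By gene, the median level was 69.2% and 30.6% in Cntn5, 63.3% and 36.7% in Cntnap2, 62.9% and 58.1% in Lrrc4c, 60.6% and 54.2% in Sdk1 and 40% and 41.5% in Tmem132d. In Cntn5 and Cntnap2 the medians differed between libraries although the sites called in both had near-equal levels, so the gap lies in the sites called in 1 library alone.

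**Figure D4:**
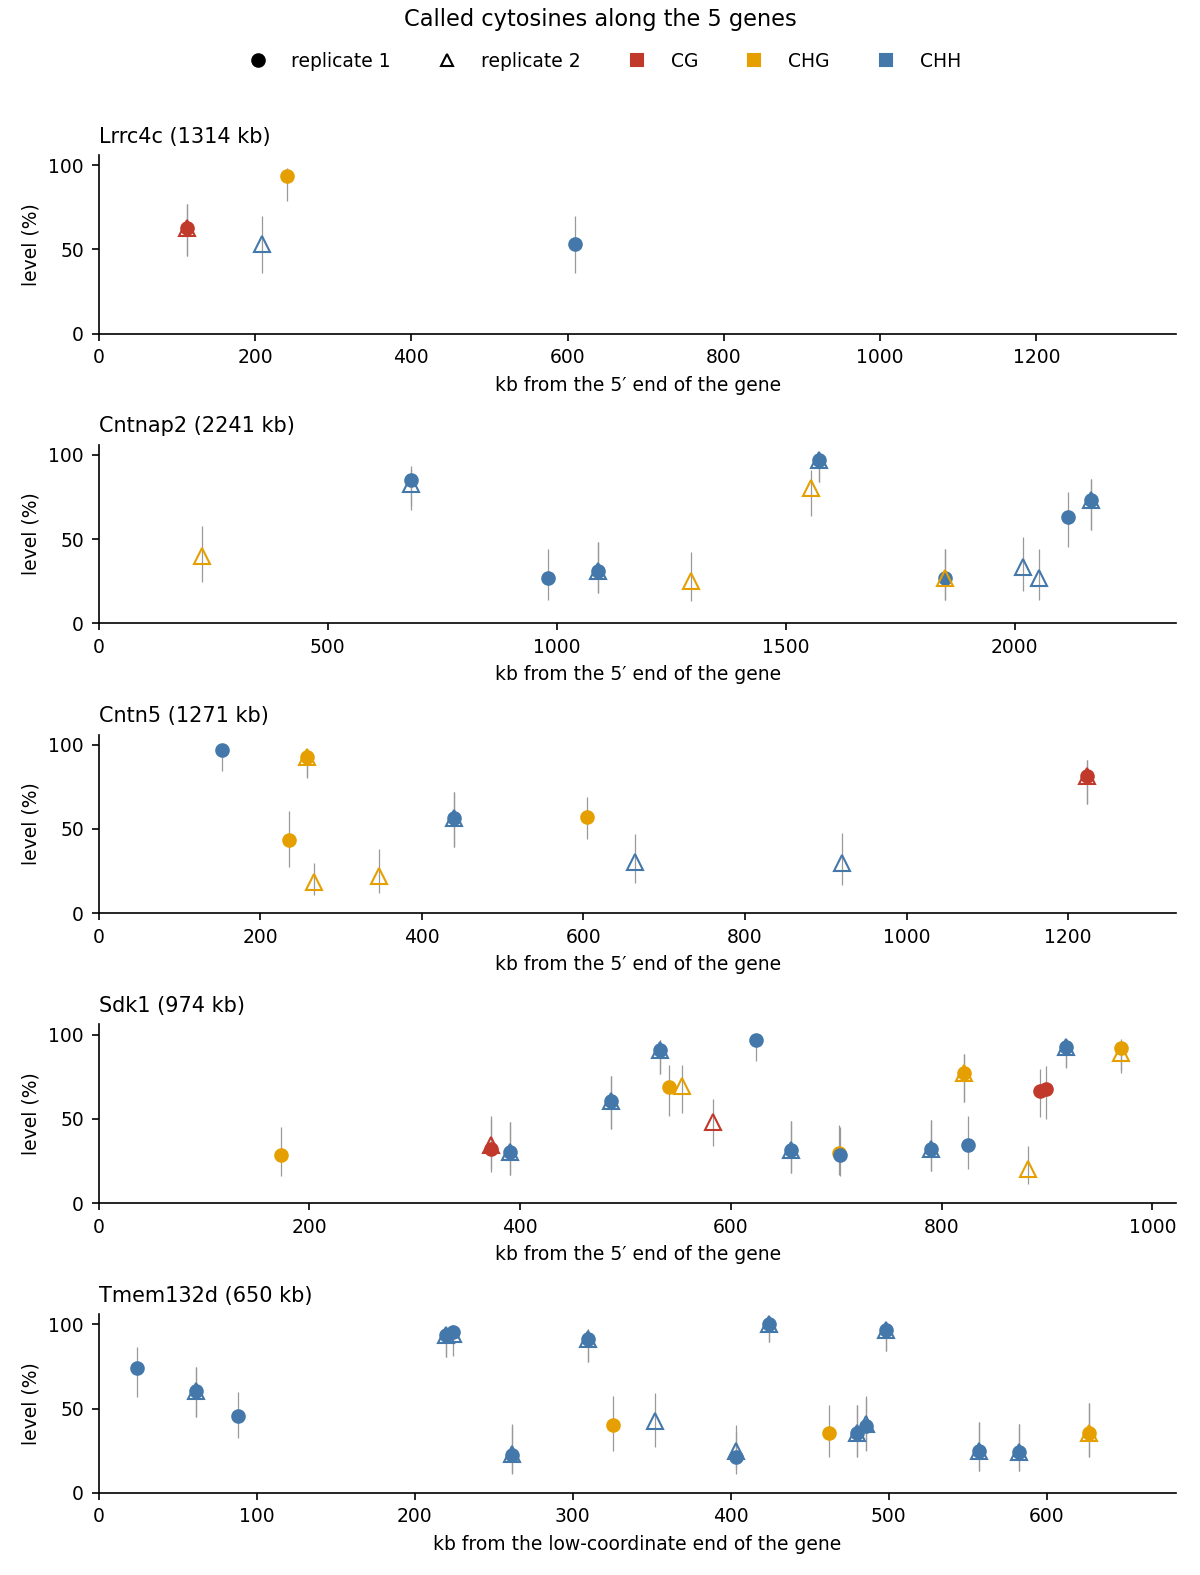
Level of each called site in percent (vertical axes) against its distance in kb from the 5′ end of the gene, or from the low-coordinate end for Tmem132d, whose strand is not in the tables used (horizontal axes); filled circles are replicate 1, open triangles replicate 2, colours give the context and bars are 95% Wilson intervals. Where both replicates called a site the symbols lie within 3.95 points of each other, Lrrc4c has no site in its last 703 kb, and the 5 equal sections of Sdk1 hold 1, 1, 6, 4 and 9 positions.

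Cntn5 held 10 distinct positions, spread over 152 kb to 1223 kb from its 5′ end. Cut into 5 equal sections from the 5′ end, the gene held 2, 4, 2, 1 and 1 of them, and the largest gap was 303 kb. Besides the CG site, 2 positions were called in both replicates. The CHG site at 10646781, within CCG, kept the C in 37 of 40 and 38 of 41 reads (92.5% and 92.7%). The CHH site at 10464516, within CAC, stood at 18 of 32 reads in both (56.2%). The highest level was 97.0% (32 of 33 reads) at 10752673, within CCA, in replicate 1 alone, and the lowest was 18.8% (12 of 64 reads) at 10638696, within CAG, in replicate 2 alone. The latter is also the deepest site of replicate 2 in the 5 genes.

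Cntnap2, the longest of the 5 genes, held 13 positions, of which the 5 equal sections from the 5′ end held 1, 1, 3, 2 and 6. Its largest gap, 456 kb, lay between 226 kb and 682 kb from the 5′ end. All 4 positions called in both replicates were CHH sites. The highest, at 46633637 within CAA, kept the C in 30 of 31 reads in both (96.8%), and the site at 45742036 within CCC kept it in 29 of 34 and 29 of 35 (85.3% and 82.9%). The site at 47226383, within CTT and inside the long noncoding RNA gene Gm35280, stood at 22 of 30 reads in both (73.3%), and that at 46151096, within CCT, at 10 of 32 in both (31.2%). The lowest level was 26.7% in replicate 1, at 2 sites with 8 of 30 reads, and 25% in replicate 2, at 46352629 within CAG with 8 of 32 reads.

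Lrrc4c held 4 positions, 3 of them in the first of 5 equal sections. The last lay 610 kb from the 5′ end, and the remaining 703 kb of the gene, 53.6% of its length, had no called site in either library. Besides the CG site, the gene had 3 sites in 1 library each. They stood at 93.3% (28 of 30 reads at 96559173, within CTG, replicate 1), 53.3% (16 of 30 at 96928186, within CTA, replicate 1) and 53.3% (16 of 30 at 96526636, within CAT, replicate 2). No site of this gene was below 50% in the listed data, though with 4 positions this describes those sites only.

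Sdk1 held 21 positions, the most of the 5 genes, of which the 5 equal sections from the 5′ end held 1, 1, 6, 4 and 9. Of these, 8 were called in both replicates, and 6 of the 8 had the same counts in both. The site at 142211800, within CAG, stood at 35 of 38 and 41 of 46 reads (92.1% and 89.1%), and that at 141774480, within CAT, at 30 of 33 in both (90.9%). Intermediate levels were found at 142062976 within CAG (24 of 31 in both, 77.4%) and at 141727886 within CCC (20 of 33 in both, 60.6%). Low levels were shared at 142031727 within CCC (11 of 34, 32.4%), 141898580 within CTC (10 of 32, 31.2%) and 141632220 within CAC (9 of 30, 30.0%). High and low levels thus occurred in the same gene at sites called in both libraries. The highest level of replicate 1 was 96.9% (31 of 32 reads at 141865479, within CCA), and the lowest of replicate 2 was 20.4% (10 of 49 reads at 142123562, within CTG).

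Tmem132d held 19 positions in 649587 bp, and 12 of them were called in both replicates. The counts were 8 of 21 in Sdk1, 4 of 13 in Cntnap2, 3 of 10 in Cntn5 and 1 of 4 in Lrrc4c. Over all distinct called positions, 11542 of 46677 were called in both. Since the genes were chosen with their sites in view, nothing is read from these counts. In it, 4 positions called in both stood above 90%: 128281480 within CAT (31 of 32 in both, 96.9%), 128007411 within CAT (65 of 68 and 32 of 34, 95.6% and 94.1%), 128003103 within CTC (31 of 33 in both, 93.9%) and 128093223 within CAC (32 of 35 in both, 91.4%). The site at 128007411 had the highest depth of replicate 1 in the 5 genes, 68 reads, and 34 in replicate 2, at nearly the same level. The site at 127844859, within CTA, stood at 23 of 38 reads in both (60.5%). The other 7 positions called in both stood between 21.1% and 40.6%. They were 128269291 within CAT (39.4% and 40.6%), 128410367 within CCG (35.5% in both), 128263162 within CCT (35.3% in both), 128340423 within CCT (25% in both), 128365752 within CCT (24.2% in both), 128045151 within CCC (22.6% and 23.3%) and 128186943 within CCT (21.1% and 25%). Of these 7 low sites, 4 were within CCT, a trinucleotide found at 8 of the 67 positions (11.9%) and at 9.34% of the 46677 distinct called positions. This was noticed after the values were seen. The 8 positions include these 4, and both shares are over sites of all levels, so nothing is read from the count. From the low-coordinate end, 5 equal sections of the gene held 3, 2, 4, 7 and 3 positions.

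Strand could be read against the direction of the gene for the 4 genes in the RefSeq promoter table. Of their 48 positions, 26 lay on the strand given for the gene and 22 on the opposite strand. Sdk1 had 13 on its own strand and 8 on the other, Cntn5 6 and 4, Cntnap2 6 and 7, and Lrrc4c 1 and 3. In Tmem132d, 10 lay on the plus strand and 9 on the minus strand.

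At the 28 positions called in both replicates the read counts of the libraries were nearly the same. Kept and lost reads were the same in both libraries at 20 of the 28 (71.4%, Wilson interval 52.9 to 84.7), against 70.6% of the 11542 positions shared over the genome. The largest difference in level was 3.95 points, at 128186943 in Tmem132d. Fisher's exact test (two-sided, Benjamini-Hochberg adjusted over all 11542 shared positions) called 0 of the 28, with a lowest unadjusted p of 0.724, against 0.026% called over all. At an unadjusted p under 0.05 it also called 0 of the 28. How alike the counts would be from read sampling alone was not computed, and a test that calls no difference does not measure it. Equal levels in both libraries are therefore not taken as independent evidence of a level. The densities, medians and shares given here still count these positions in each library on its own. The share of sites called in both was 56.0% of replicate 1 (42.3 to 68.8) and 62.2% of replicate 2 (47.6 to 74.9) in the 5 genes, and 40.4% and 38.9% over all called sites. Since the genes were chosen with their called sites in view, nothing is read from that difference. Tmem132d gave 12 of the 28.

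Some sites called in 1 library had a counterpart with near-equal counts (both counts within 1 read) at another position within 120 bp in the other library. In the 5 genes this held for 3 of the 22 positions of replicate 1 alone (13.6%) and 3 of the 17 of replicate 2 alone (17.6%), against 20.8% and 19.5% over all such sites. In Tmem132d, a minus-strand site at 128207415 kept the C in all 32 reads of replicate 1, and a plus-strand site 1 bp away at 128207416 kept it in all 33 reads of replicate 2. Put together from the trinucleotides of the pair, the plus strand reads AAGCAT from 128207413 to 128207418, so the called cytosines are those of the central GC on opposite strands. These are the highest levels of the 5 genes in either library. In Sdk1, 142159214 on the plus strand (37 of 40 reads, 92.5%, replicate 1) and 142159305 on the minus strand (38 of 41, 92.7%, replicate 2) lay 91 bp apart. In Cntnap2, 46908196 (replicate 1) and 46908084 (replicate 2) lay 112 bp apart on the minus strand with 8 of 30 reads each. A further pair in Sdk1, 141944463 and 141944581, lay 118 bp apart on opposite strands within replicate 1, with 10 of 34 and 10 of 35 reads. Whether the members of a pair come from the same fragments was not tested.

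The other neuronal adhesion genes were taken from a list of 78, drawn up with earlier results of these data known, all of which matched the annotation. Of these, 68 held a called site in either library (87.2%), 45 held a site called in both (57.7%), and 8 held a CG site called in both (10.3%). Length differs between these genes, from 3.62 kb to 2271 kb, and the 34 list genes of at least 500 kb are set beside the 5. All 34 held a called site, 26 held a site called in both and 4 a CG site called in both. Their median ratio to the chromosome mean was 0.456, beside 0.568 for the 222 genes of that length outside the 5, a set that includes these 34. Of the 34, 32 were below 1. Cdh13, the gene of T-cadherin, at 1.17, and Kirrel3, which encodes an immunoglobulin-type adhesion molecule, at 1.03, were those above 1 in the mean of the replicates. Kirrel3 stood at 0.881 in replicate 1 and 1.17 in replicate 2, and the counting intervals of both genes include 1 in each library. Tmem132d, chosen with its sites in view, was at 1.82 higher than any list gene of at least 500 kb. Shorter list genes stood higher, among them Cdh4 (456955 bp) at 2.61, Sdk2 (290656 bp) at 2.48 and Nfasc (177159 bp) at 3.60, so a high ratio was not particular to Tmem132d.

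Close relatives of the 5 genes differed among themselves. The contactin gene Cntn1 (290816 bp) and the Caspr gene Cntnap3 (166439 bp) held 0 called sites. The counting intervals of their ratios include 1, with upper ends of 1.09 and 1.07 for Cntn1 and 2.23 and 2.13 for Cntnap3. Cntn4, a contactin gene of 1022510 bp, held 4 in replicate 1 and 2 in replicate 2 (0.390 and 0.195 per 100 kb). Cntn2 and Cntn3 each held 0 in replicate 1 and 1 in replicate 2, and Cntn6 held 1 and 2. Cntnap5a and Cntnap5c, both of at least 500 kb, held 1 in each library, and Cntnap5b, also of that length, held 2 and 5. Sdk2, the relative of Sdk1, held 20 distinct positions in 290656 bp (4.41 and 4.07 per 100 kb) and 2 CG sites called in both, at 113803879 (12 of 39 reads in both, 30.8%) and 113867305 (17 of 38 in both, 44.7%) of chromosome 11. Tmem132b and Tmem132c, which lie on chromosome 5 as Tmem132d does, held 1.89 and 1.51, and 1.83 and 1.83 sites per 100 kb. Tmem132c (127241826 to 127565790) lies within the 1 Mb beside Tmem132d, so its sites are also counted in the surroundings of that gene. Their mean ratios to the chromosome were 1.30 and 1.40, with counting intervals that include 1 in each library (0.474 to 3.41 and 0.313 to 2.94 for Tmem132b, 0.518 to 3.07 and 0.510 to 3.02 for Tmem132c). Tmem132e, of 58770 bp, held 3 sites in each library (4.78 per 100 kb in both), and Tmem132a held 1 and 0. Lrrc4 and Lrrc4b, relatives of Lrrc4c of 3622 and 20865 bp, held 1 site in each library. Those single sites amount to 13.1 and 4.02 per 100 kb in both libraries, with intervals of 0.332 to 73.1 and 0.102 to 22.4. Ntng1, the gene of netrin-G1 that Lrrc4c's product binds, held 0 called sites in 369923 bp, and the intervals of its ratio reach 1.26 and 1.20.

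CG sites called in both were also held by Cdh13 (30 of 35 and 31 of 36 reads, 85.7% and 86.1%), the protocadherin gene Pcdh15 (29 of 37 in both, 78.4%), the axon guidance receptor gene Robo1 (28 of 35 in both, 80%), Cntnap1 (19 of 39 in both, 48.7%), Cntnap4 (23 of 35 in both, 65.7%), Lrfn1 (52 of 55 in both, 94.5%) and Tenm1, a teneurin gene on chromosome X (32 of 32 in both, 100%). At 81.2% and 62.9%, the CG sites of Cntn5 and Lrrc4c lay within the range of these sites and those of Sdk2, 30.8% to 100%, as did that of Sdk1. The list genes with the most distinct positions were Cdh13 (39), Tenm3 (29), Cdh4 (25), Sdk2 (20) and Csmd1 (16, as had Nrxn3), beside 21 in Sdk1 and 19 in Tmem132d.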

How the data were processed

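Captured genomic DNA of 2 embryonic stem cell libraries (1 group, replicate numbers from the titles) was analysed. Without roles or order, mm10 and the tools Bowtie2 2.4.5, Bismark 0.23.1, SAMtools, FastQC 0.11.9 and cutadapt 4.1 appear in the submitters' processing notes. Pooling and duplicate removal are not given in the sources used here. Per the file headers, the authors deposited raw counts of reads that kept and lost the C, their sum, and a p-value with Holm and Benjamini-Hochberg adjusted p-values for each listed cytosine. The lowest listed depth was 30 and the highest adjusted p 0.0497, so uncalled cytosines were not analysed. Each deposited p-value is what a binomial with a rate of 6.93% gives for that count alone. With the probability of that count or more, 2 sites of replicate 1 and 0 of replicate 2 in the 5 genes would exceed the largest listed p.

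Levels, Wilson and exact Poisson intervals (95%) and Fisher tests were computed with scipy 1.17.1, pandas 2.3.3 and numpy 2.4.6 under Python 3.11.15. The Fisher test was tested on simulated counts. Gene spans came from RefSeq GRCm38.p6, with no exons or genome sequence, so exonic, intronic and UTR positions were not told apart. For chromosome means, length was counted up to where the final annotated gene ends. The genes and the list of 78 relatives were chosen with earlier results of these data known. Named were all CG sites, all sites called in both replicates, and the highest and lowest sites of each gene. List genes with a CG site called in both or among the 5 with the most positions were also named, and for each gene the 2 nearest in density. Close relatives, Ntng1, Kirrel3, Nfasc, Nrxn3 and a trinucleotide were added outside these rules, after the values were seen. Alternatives were stricter thresholds, a depth of at least 50, a level minimum, no flanks, other chromosome means and each replicate alone.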

Additional observations from a re-analysis of the deposited data

How the results depend on the processing

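Of 128 recomputed values, 105 stayed within 1.5 times a count or density, or within the SD of the replicates for the median level (11.6 points) and CG share (0.786 points); 18 moved further and 5 changed side of a ratio of 1. The comparison with the 1 Mb on either side of each gene was chosen after seeing the data. At a depth of at least 50, few sites remain by construction: the densities were 0.0785 per 100 kb in Cntn5, 0.0765 in Tmem132d and 0 in the other 3 genes, no site was shared (0) and the CG share was 0%. The CG share was 10.7% with an adjusted p under 0.01 and 12.3% under 0.001, and the median level 65.0% under 0.001, since stricter thresholds remove low levels. Sdk1, at 1.14 of its chromosome, stood at 1.34 without replicate 2 but fell to 0.931 without replicate 1, to 0.888 against protein-coding gene spans, to 0.406 against its surroundings and to 0 at a depth of at least 50, and Cntn5 turned from 0.365 to 1.02 against its surroundings. Without dense windows Fisher's test called 1 shared site in place of 3. With all shared sites kept, 27 had an unadjusted p under 0.05 in that test. The list genes with a site were 68, with a CG site 24, and with a site in both replicates 45. Depth limits all of this: a called site rests on about 30 reads, and coverage of uncalled cytosines is not listed. No paired analysis was possible because there is 1 group.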
